A study of Mus musculus with 36 samples.

Results

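The 6 microRNA host genes Mir17hg, Mir9-3hg, Mir124a-1hg, Mir99ahg, Mir22hg and Mir100hg were chosen by name from a list of host transcripts known from neural progenitors, and all 6 were present among the 40205 genes of the count table. They were compared between extracellular vesicles (EVs) and the neural stem cells (NSCs) that released them, and across ethanol doses. The NSCs came from the fetal dorsal telencephalon of C57BL/6J mice, whose genotype is labelled WT and which the study's methods give as the reporter line Ai14. They were taken at gestational day 12.5 and grown as neurospheres to passages 7 to 10. Fetal tissue of a pregnancy was pooled by sex, so each of 3 pregnancies (sets 3, 4 and 5) gave 1 female and 1 male culture, 6 cultures in all. Every culture was kept for 5 days in medium with 0, 120 or 320 mg/dL ethanol, and both the neurospheres and the EVs of the medium were sequenced after ribosomal RNA depletion. The 36 libraries thus fell into 12 groups by location, sex and dose, 3 libraries in each, with 18 libraries from EVs and 18 from cells. The EVs were a preparation passed through a 0.2 µm filter, concentrated over a 100 kDa membrane and pelleted by ultracentrifugation. The 3 libraries of a culture and location shared their cells of origin, and only the pooled cultures of separate pregnancies were separate biological samples.

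A microRNA host gene is a longer transcript, often noncoding, from whose exon or intron the Drosha complex cuts a hairpin precursor, which Dicer then trims to the mature microRNA. In the fetal cortex, the cluster of Mir17hg is known for the expansion of progenitors, miR-9 and miR-124 for neurogenesis and neuronal identity, and let-7, miR-125 and miR-99/100 for developmental timing. The libraries measured reads of the host transcripts and of precursor loci, and mature microRNA levels were not measured here.

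The mature sequences are shown because they are what tells these hosts apart and what links the paralogous pair Mir99ahg and Mir100hg. The GENCODE annotation of GRCm39 placed 16 precursors inside the 6 hosts, and the RefSeq table (built on GRCm38.p6) held the main arm of 13 of them, each of which was found unaltered in the GRCm39 precursor. Bases 2 to 8, the seed that pairs with targets, are in capitals, and every sequence runs 5′ to 3′. The 6 precursors of Mir17hg carry 4 seeds, of which the first is shared by miR-17 and miR-20a and another by miR-19a and miR-19b. With positions counted from 1 at the 5′ end, miR-20a-5p differs from miR-17-5p by C1U and C12U, and miR-19b-3p from miR-19a-3p by U11C.
mmu-miR-17-5p: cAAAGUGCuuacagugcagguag
mmu-miR-20a-5p: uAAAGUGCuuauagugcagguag
mmu-miR-18a-5p: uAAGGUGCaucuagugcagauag
mmu-miR-19a-3p: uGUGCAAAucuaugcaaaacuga
mmu-miR-19b-3p: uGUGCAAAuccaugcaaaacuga
mmu-miR-92a-3p: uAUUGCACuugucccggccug

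Mir99ahg and Mir100hg each hold a member of the miR-99/100, let-7 and miR-125 families. Counting from 1 at the 5′ end, miR-99a-5p and miR-100-5p differ at 1 of 22 positions (U16A, miR-99a first), outside the seed, and both hosts encode an identical miR-125b-5p.
mmu-miR-99a-5p (Mir99ahg): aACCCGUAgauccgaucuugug
mmu-miR-100-5p (Mir100hg): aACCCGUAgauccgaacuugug
mmu-let-7c-5p (Mir99ahg): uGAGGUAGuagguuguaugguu
mmu-miR-125b-5p (both hosts): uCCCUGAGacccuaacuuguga

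Mir9-3hg and Mir22hg each hold 1 precursor.
mmu-miR-9-5p (Mir9-3hg): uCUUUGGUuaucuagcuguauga
mmu-miR-22-3p (Mir22hg): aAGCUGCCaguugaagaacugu

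All 6 hosts are annotated as long noncoding RNAs on the plus strand of GRCm39. Mir17hg lies at chr14:115278211-115284162 with its 6 precursors in an exon, Mir22hg at chr11:75352365-75357502 with Mir22 in an exon, and Mir9-3hg at chr7:79146444-79184154 with Mir9-3 in an exon. Mir124a-1hg lies at chr14:64824613-64835573 and holds Mir124a-1 and Mir3078 in an exon. Mir99ahg spans 615.572 kb at chr16:76970521-77586092, with Mir99a, Mirlet7c-1 and Mir125b-2 in an intron. Mir100hg spans 389.970 kb at chr9:41238321-41628290, with Mir100, Mirlet7a-2 and Mir125b-1 in an intron. Levels were not compared between hosts, because the exon models behind the counts are not given in the sources used here. Of the counted genes that overlap a host, Tlcd2 overlaps Mir22hg exons on the same strand and had 2 to 26 counts per cell library, and the antisense gene Gm35835 overlaps Mir100hg and had 9 to 79. Whether reads were assigned by strand is not stated, so reads from a host and an overlapping gene cannot be told apart.

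Library totals were 0.959 to 5.51 M counts in EVs and 26.6 to 55.3 M in cells (M, 1e6 counts). Levels are given as counts per M counts (CPM), scaled by TMM (trimmed mean of M values) over the genes tested between EVs and cells, and intervals on counts cover counting error only. Divided by library totals alone, without TMM, a count of 3 corresponded to 0.544 to 3.13 CPM in EV libraries and to 0.0543 to 0.113 CPM in cell libraries. On the TMM scale these limits differ. In the male set 3 EV library at 120 mg/dL, for example, 3 counts of Mir124a-1hg were 4.98 CPM. The cell libraries carried the NSC markers (11 of 12 with counts, summed level 2810 to 4220 CPM, Sox2 at 0 in every library), while neuron markers summed to 9.47 to 123 CPM, oligodendrocyte lineage markers to 296 to 587 CPM and astrocyte markers to 19.7 to 248 CPM. Microglia, endothelial and erythroid markers summed to at most 0.607, 2.26 and 0.0787 CPM in cells and to at most 12.1, 20.4 and 1.7 CPM in EVs. The cell library of the female set 3 culture at 320 mg/dL stood apart, with 5.24% of its counts on 163 small structural RNA genes against 1.29% to 2.9% in the other cell libraries.

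Mir17hg, Mir22hg, Mir99ahg and Mir100hg were lower in EVs than in cells, while Mir9-3hg was higher on the TMM scale. Mir17hg had the largest difference, 25-fold, followed by Mir22hg with 8.88-fold, and Mir100hg and Mir99ahg were 3.44-fold and 3.31-fold lower. The sizes depended on the scaling: with library totals, the log2 fold changes were -5.43 for Mir17hg, -3.93 for Mir22hg, -2.61 for Mir100hg and -2.59 for Mir99ahg, where the median of all genes was -0.88. The 5 tested hosts passed the threshold of edgeR's quasi-likelihood test (Benjamini-Hochberg adjusted p under 0.05), 4 of them lower in EVs, where 80.5% of all 15281 genes tested passed in either direction and 42.2% passed as lower. The median log2 fold change of these 5 was -1.78 against -0.08 over all genes, a description only, since the filter shaped which hosts it covers. Mir17hg and Mir22hg entered the test through their counts in cells, where they are high. Mir124a-1hg, which had a log2 fold change of 2.11 when no gene was filtered out, did not pass the filter on low counts. The fit had no term for the culture and took libraries of the same culture as independent. Its SE and p values, here and below, therefore do not allow for only 6 cultures. With each culture's counts summed over its doses, edgeR's adjusted p was 1.95e-06 for Mir17hg and 4.19e-06 for Mir22hg. It was 0.000117 for Mir100hg and 1.16e-05 for Mir99ahg.

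**Figure D1:**
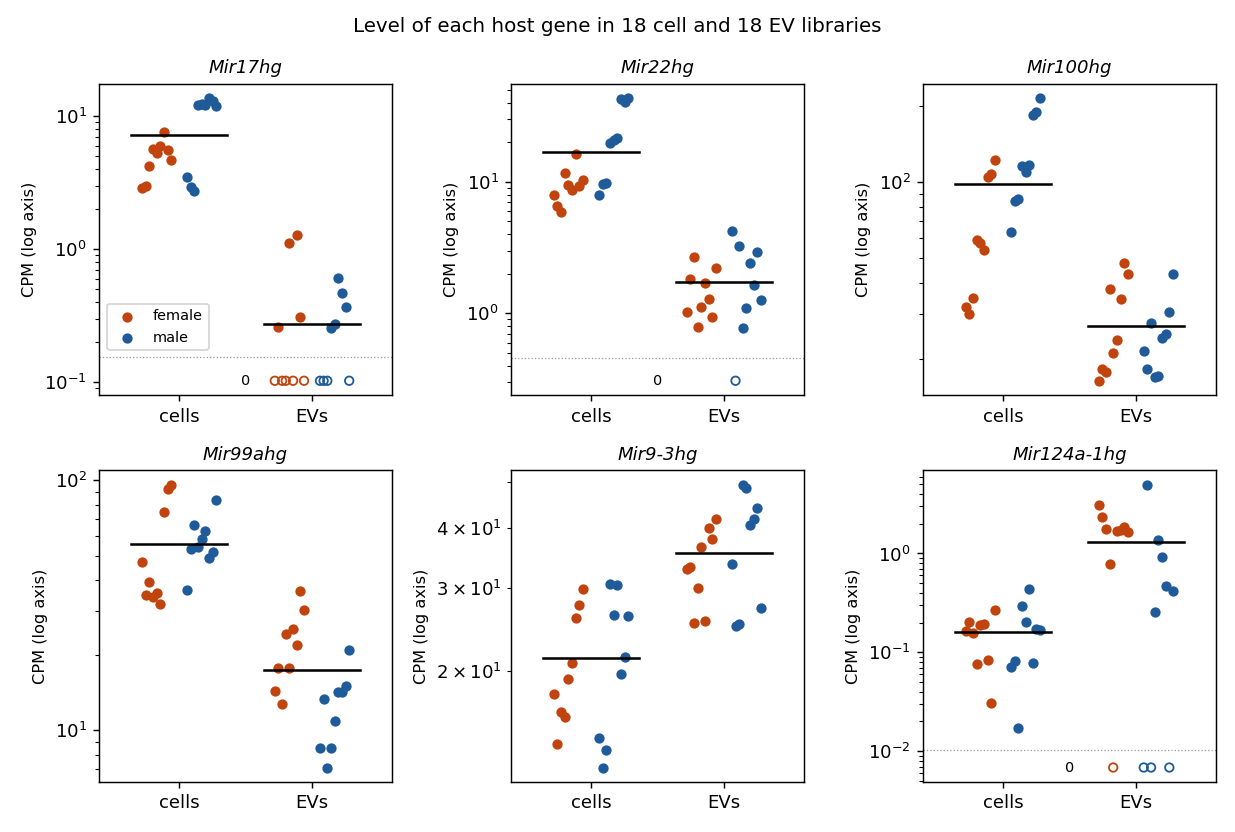
Level of each host gene (CPM, log axis) in the 18 cell and 18 EV libraries, with female libraries in orange, male libraries in blue, black bars for the means over 18 libraries and open circles below the dotted line for libraries at 0. Mir17hg lies between 2.75 and 13.8 CPM in cells and at or below 1.29 CPM in EVs, whereas Mir9-3hg overlaps between the groups at 12.5 to 30.5 CPM in cells and 24.9 to 49.5 CPM in EVs.

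Mir17hg, the host of the miR-17-92 cluster, had 104 to 827 counts per cell library (median 245) and 0 to 3 counts per EV library, with 9 of 18 EV libraries at 0. Its mean level was 7.2 ± 4.12 CPM over the 18 cell libraries and 0.275 ± 0.389 CPM over the 18 EV libraries (SD), and the groups did not overlap. The 18 EV libraries held 13 Mir17hg counts together (exact 95% Poisson interval 6.92 to 22.2), where the cell level would have given 314. The log2 fold change was -4.64 (SE 0.39, edgeR adjusted p = 3.02e-13). This was the 29th lowest of 15281 genes, a description only, since Mir17hg entered the test through its counts in cells. The share of all genes whose groups did not overlap was not counted.

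Mir22hg, whose microRNA is widely expressed, ranged from 151 to 2591 counts in cells (median 587) and from 0 to 14 in EVs (median 3.5). The corresponding means were 16.8 ± 12.6 CPM (cells) and 1.73 ± 1.05 CPM (EVs, SD, n = 18 each), and the lowest cell library (5.94 CPM) was above the highest EV library (4.24 CPM). Here too, the share of all genes with such a gap was not counted. The log2 fold change was -3.15 (SE 0.29, edgeR adjusted p = 1.97e-12), and it was -3.86 without set 3 and -2.55 without set 5.

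The paralogous hosts Mir99ahg and Mir100hg were both lower in EVs, and the difference between them was not tested. Mir99ahg had 55.6 ± 20.2 CPM in cells (lowest 32, median 52.4, highest 96.3) and 17.4 ± 7.84 CPM in EVs (lowest 7.1, median 14.7, highest 36.1). Mir100hg had 98.2 ± 54.6 CPM in cells (lowest 30, median 95.4, highest 216) and 27 ± 10.3 CPM in EVs (lowest 16.4, median 24, highest 48). For both hosts the ranges overlapped, through the lowest cell and the highest EV libraries, but in each of the 6 cultures and at each of the 3 doses the EV library was below the cell library of the same culture. The log2 fold changes were -1.73 for Mir99ahg (SE 0.18, edgeR adjusted p = 1.22e-10) and -1.78 for Mir100hg (SE 0.23, edgeR adjusted p = 1.04e-08).

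Mir9-3hg, one of the hosts of miR-9, had 15 to 193 counts in EVs (median 89) and 417 to 1771 in cells (median 1070.5). EV libraries averaged 35.5 ± 8.11 CPM and cell libraries 21.2 ± 6.22 CPM (SD, n = 18 each), with a log2 fold change of 0.75 (SE 0.13, edgeR adjusted p = 3.63e-06). The EV library exceeded its cell library in 6 of 6 cultures at each dose, by 0.06 to 1.24 on the log2 CPM scale. The direction depended on the scaling. Divided by library totals alone, the levels were 27.5 ± 9.1 CPM (EVs) and 28.2 ± 8.41 CPM (cells), a log2 fold change of -0.04 (edgeR adjusted p = 0.798) where the median of all genes was -0.88. Without the filter on low counts the log2 fold change was 0.11 (adjusted p = 0.505) where the median of all genes was 0.46, and after adding up each culture's counts over its doses it was 0.44 (adjusted p = 0.0669).

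**Figure D2:**
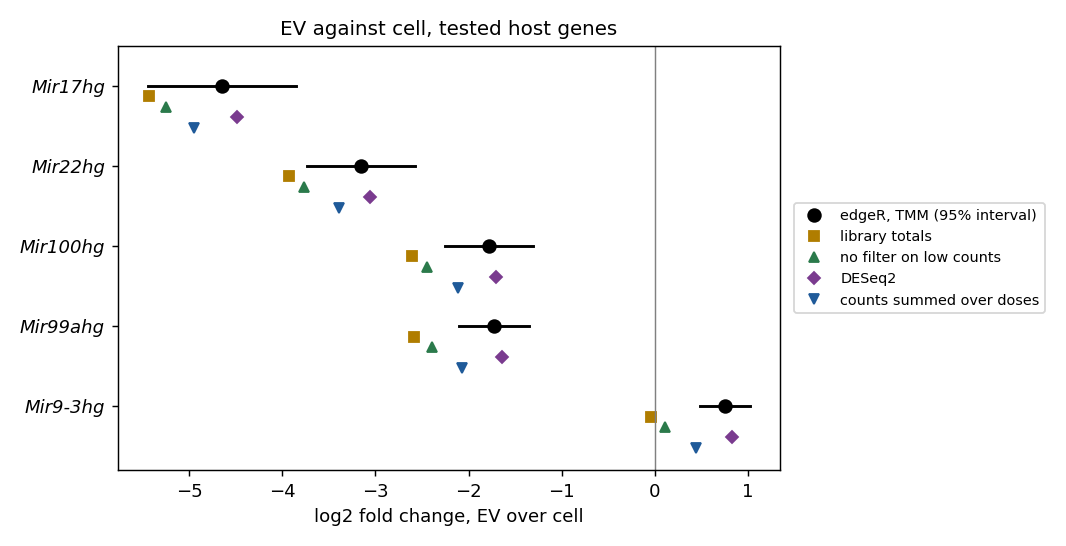
Log2 fold change of EVs over cells for the 5 tested host genes, as black circles with 95% intervals for edgeR with TMM scaling and coloured symbols for 4 other ways of processing. The 4 lower hosts stay left of 0 in every case shown, while Mir9-3hg lies at 0.75 with TMM and at -0.04 with library totals.

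Ratios between hosts within a library do not depend on the scaling. They were examined after the values above were seen, with Mir9-3hg as the shared numerator because it was higher in EVs, so they are given as a description without a test. For each culture, counts were summed over the doses (0.5 added) and the log2 ratio of Mir9-3hg to another host was compared between EVs and cells. The ratio was higher in EVs in 6 of 6 cultures against Mir17hg (mean log2 difference 5.12 ± 0.99, SD, n = 6), Mir22hg (3.71 ± 1.06), Mir99ahg (2.53 ± 0.84) and Mir100hg (2.48 ± 0.81). Against Mir124a-1hg it was lower in 6 of 6 cultures (-1.88 ± 1.04).

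Mir124a-1hg, a host of the neuronal miR-124, was near the limit of detection. It had 1 to 17 counts per cell library (median 7) and 0 to 9 per EV library (median 2.5, with 4 libraries at 0), or 0.161 ± 0.104 CPM (cells) and 1.29 ± 1.29 CPM (EVs, SD, n = 18 each). The EV libraries held 48 counts together (exact 95% Poisson interval 35.4 to 63.6), where the cell level would have given 6.86. When no gene was filtered out, its log2 fold change was 2.11 (SE 0.4, edgeR adjusted p = 1.14e-05), where the median of all genes was 0.46 and 70.9% of 31069 genes were called. The other microRNA hosts left untested between EVs and cells, where they had any count, also had higher means in EVs. Their means were 0.172 to 0.662 CPM in EVs and 0.00701 to 0.286 CPM in cells. A higher EV level was thus not particular to Mir124a-1hg among hosts with few counts. Neuron markers had a median summed level of 51.3 CPM in EVs (23.9 to 95.1) and 20.7 CPM in cells, with overlapping ranges. NSC markers had 1190 CPM in EVs (879 to 1490) and 3130 CPM in cells, and these marker lists' part in the EV levels of Mir124a-1hg, Mir9-3hg and Mir124-2hg was not tested. By culture, the EV library was above the cell library in 4 of 6 cultures at 0 and at 120 mg/dL and in 5 of 6 at 320 mg/dL. In bulk libraries, fewer cells or vesicles that carry a transcript and less of it in each cannot be told apart.

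Of the 16 precursor loci inside the hosts, 8 had counts and the other 8, among them Mir9-3, Mir124a-1, Mir22 and Mir100, were at 0 in all 36 libraries. So was the NSC marker Sox2, and the reason for these zeros was not tested. The counting settings and annotation release are not given in full, so a 0 cannot be read as absence of RNA from a locus. Between EVs and cells 3 precursors could be tested, beside 80.5% of all genes called. The Mir17 locus averaged 0.7 ± 0.656 CPM over EV libraries and 2.04 ± 2.95 CPM over cell libraries (SD, n = 18 each) and fell by 1.4 on the log2 scale (SE 0.47, edgeR adjusted p = 0.00669). Mir20a had a log2 fold change of -0.86 (edgeR adjusted p = 0.0648, and 0.000206 with library totals) and Mir99a of 0.02 (edgeR adjusted p = 0.965, and -0.79 with adjusted p = 0.014 with library totals). In the female set 3 cell library at 320 mg/dL, the Mir17 locus had 338 counts and Mir20a 466, beside 108 counts of Mir17hg, whereas in the other cell libraries Mir17 had 25 to 161 counts. Without that library, the 3 precursors did not pass the filter, and the 5 hosts kept their directions and calls (log2 fold changes -4.46 for Mir17hg, -3 for Mir22hg, -1.64 for Mir100hg, -1.56 for Mir99ahg and 0.94 for Mir9-3hg).

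The count table held 8 other genes named as microRNA hosts, of which 3 were tested between EVs and cells. Mir155hg, the host of the immune miR-155, entered the test through its counts in cells. It had 21 to 160 counts per cell library and 2 counts in all EV libraries together, 16 of which were at 0, and passed as lower. Mir670hg fell by 1.38 (SE 0.51, edgeR adjusted p = 0.0145). Mir124-2hg, which like Mir124a-1hg hosts a miR-124 precursor, was higher in EVs with 8.94 ± 3.69 CPM against 5.33 ± 1.85 CPM in cells (log2 fold change 0.68, SE 0.17, edgeR adjusted p = 0.000434). Like that of Mir9-3hg, its log2 fold change was below 0 with library totals (-0.12, edgeR adjusted p = 0.554), and it lost its call without the filter on low counts (0.04, adjusted p = 0.83). Without the female set 3 cell library at 320 mg/dL, Mir155hg did not pass the filter, and Mir124-2hg (0.91) and Mir670hg (-1.28) kept their directions and calls.

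Among 23 genes of microRNA processing and function, 22 were tested and 7 were higher and 12 lower in EVs, a share close to the 80.5% called among all genes. Their median log2 fold change was -0.3, against -0.08 over all genes. Higher were Ago2, the slicing Argonaute (log2 fold change 3.12, SE 0.16), Lin28b, which blocks let-7 maturation (2.52, SE 0.21), and Ago1 (1.88, SE 0.12). Lower were the Drosha cofactor Ddx5 (-2.73, SE 0.11), the exonuclease Xrn2 (-1.82, SE 0.1) and Srrt, which links capped transcripts to Drosha (-1.36, SE 0.15). These 6 genes passed in the same direction with library totals, under which 4 of the 22 were higher and 16 lower in EVs. Without the female set 3 cell library at 320 mg/dL, Lin28b did not pass the filter, and 8 were higher and 10 lower.

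Within cells, the hosts differed far more between cultures than between doses. Mir100hg ranged 7.19-fold over the 18 cell libraries, and 98.2% of its sum of squares in log2 CPM lay between the 6 cultures. The share between cultures was 95.8% for Mir22hg, 95.7% for Mir17hg, 90.6% for Mir9-3hg, 78.5% for Mir99ahg and 55.6% for Mir124a-1hg, beside a median of 73.7% over 17792 genes. Doses held 0.471% to 6.67% of the sum of squares of the 6 hosts, beside a median of 2.64%. These shares are descriptive, and a culture stands for its pregnancy, its sex and its handling together.

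**Figure D3:**
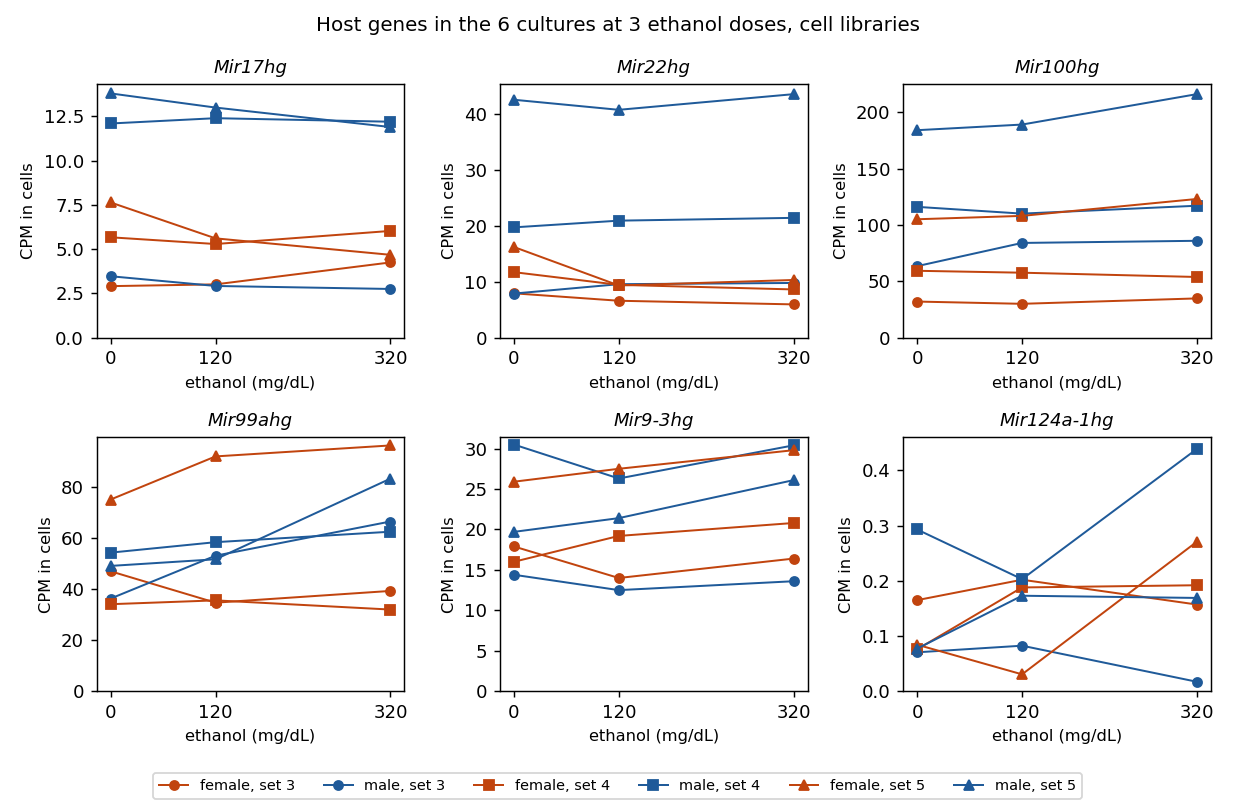
CPM of each host gene in cell libraries (linear axes from 0) against ethanol dose (mg/dL), with 1 line for each of the 6 cultures, female in orange and male in blue, and circles, squares and triangles for sets 3, 4 and 5. The lines of Mir100hg and Mir22hg keep the male set 5 culture highest at every dose, at means of 196 and 42.2 CPM. Not every line is level: from 0 to 320 mg/dL, Mir22hg goes from 16.2 to 10.3 CPM in the female set 5 culture. Mir100hg goes from 63.4 to 85.9 CPM in the male set 3 culture.

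Mir100hg was highest in the male set 5 culture (196 ± 17.2 CPM over the 3 doses, SD, n = 3) and lowest in the female set 3 culture (32.3 ± 2.43 CPM). Between them lay the male set 4 (114 ± 4.07 CPM), female set 5 (112 ± 9.67 CPM), male set 3 (77.8 ± 12.5 CPM) and female set 4 cultures (56.9 ± 2.81 CPM). The male set 4 and female set 5 cultures overlapped within their spread over doses.

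Mir22hg was highest in the same male set 5 culture (42.2 ± 1.42 CPM), ahead of the male set 4 culture (20.6 ± 0.886 CPM). The other 4 cultures lay between 6.82 and 11.9 CPM on average, and the ranges of neighbouring cultures overlapped.

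Mir17hg separated the male set 5 and male set 4 cultures (12.9 ± 0.955 and 12.2 ± 0.144 CPM) from the female set 5 and set 4 cultures (5.97 ± 1.51 and 5.66 ± 0.372 CPM). Both set 3 cultures were lower still (3.39 ± 0.747 CPM in the female and 3.05 ± 0.374 CPM in the male culture).

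Mir99ahg had its highest level in the female set 5 culture (87.8 ± 11.2 CPM) and its lowest in the female set 4 culture (33.9 ± 1.83 CPM). Mir9-3hg was highest in the male set 4 culture (29.1 ± 2.42 CPM), next to the female set 5 culture (27.7 ± 1.95 CPM), and lowest in the male set 3 culture (13.5 ± 0.959 CPM). Astrocyte markers differed between the same cultures, with summed levels of 207 CPM in the male set 5, 210 CPM in the male set 3 and 27.5 CPM in the female set 3 culture. Their part in the levels of the hosts was not tested.

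Across the 18 cell libraries, which are 6 cultures at 3 doses each, the levels of Mir17hg and Mir22hg followed each other (Pearson r of log2 CPM 0.88), as did those of Mir22hg and Mir100hg (0.87). For Mir99ahg and Mir17hg r was 0.26. Among the 17791 other genes compared in cells, those with the most similar pattern were Rlf and Socs5 for Mir17hg (0.97 and 0.96), Numbl and Atp9b for Mir22hg (0.97 each) and Igsf11 and Nrcam, both cell adhesion genes, for Mir100hg (0.99 and 0.98). For Mir9-3hg they were the protocadherin Pcdh10 and the connexin Gjd2 (0.97 and 0.96), and for Mir99ahg Elp4 and Pag1 (0.93 each). These genes were picked as the highest of 17791 correlations over only 6 cultures. Such a choice alone can give high r values, and a link to the hosts was not tested.

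Ethanol moved none of the tested hosts past the threshold, in cells or in EVs. In cells, 5 hosts were tested with the culture as a block. At 120 mg/dL their log2 fold changes against control were -0.19 to 0.09 and edgeR called 0 of them, as it did 0% of all 17792 genes (444 genes had an unadjusted p under 0.05, and DESeq2 called 2 genes). At 320 mg/dL they were -0.17 to 0.31 and edgeR called 0 of the 5, beside 0.0393% of all genes. DESeq2 called 0 of the 5 at either dose. At 320 mg/dL, 1 host had an unadjusted edgeR p under 0.05, as did 1525 of all 17792 genes.

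**Figure D4:**
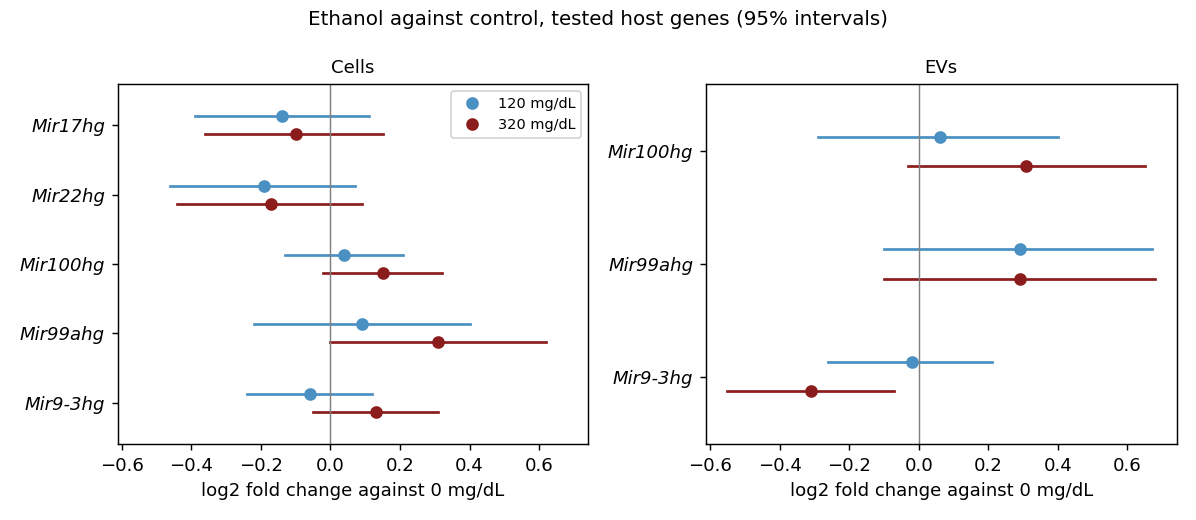
Log2 fold change at 120 mg/dL (blue) and 320 mg/dL (dark red) against 0 mg/dL, with 95% intervals, for the hosts tested in cells (left) and in EVs (right), from edgeR with the culture as a block. At 320 mg/dL the interval of Mir9-3hg in EVs (-0.55 to -0.07) lies below 0 and that of Mir99ahg in cells starts at 0 (0 to 0.62), and neither passed after adjustment over all genes.

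The host with an unadjusted p under 0.05 in cells was Mir99ahg, which had 49.3 ± 14.8 CPM without ethanol (lowest 34.1, median 48, highest 75.1) and 63.3 ± 24.7 CPM at 320 mg/dL (lowest 32, median 64.5, highest 96.3; SD, n = 6). It was higher in 4 of 6 cultures, by up to 0.87 on the log2 scale, and the groups overlapped. The log2 fold change was 0.31 (SE 0.14, edgeR unadjusted p = 0.0481, adjusted p = 0.575). Mir100hg had a log2 fold change of 0.15 at 320 mg/dL (95% interval -0.02 to 0.32) and was higher in 5 of 6 cultures. For Mir17hg, Mir22hg and Mir9-3hg the intervals at 320 mg/dL were -0.36 to 0.15, -0.44 to 0.09 and -0.05 to 0.31.

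In EVs, Mir9-3hg, Mir99ahg and Mir100hg had enough counts for the test. At 120 mg/dL edgeR called 0 of the 3, beside 0.00842% of 11880 genes, and at 320 mg/dL 0 of the 3, beside 0.0842%. DESeq2 called neither Mir9-3hg nor Mir100hg at either dose and gave no adjusted p for Mir99ahg. Mir9-3hg had 38 ± 7.22 CPM in control EVs (lowest 29.9, median 36.8, highest 49.5) and 30.9 ± 8.07 CPM at 320 mg/dL (lowest 25.1, median 26.3, highest 41.8; SD, n = 6). Its EV level was lower in 5 of 6 cultures, by 0.23 to 0.62 on the log2 scale, and 0.06 higher in the female set 5 culture. The log2 fold change was -0.31 (SE 0.11, edgeR unadjusted p = 0.0143, adjusted p = 0.274). In the same comparison 1410 of 11880 genes had an unadjusted p under 0.05. Mir100hg (0.31, 95% interval -0.03 to 0.65) and Mir99ahg (0.29, interval -0.1 to 0.68) lay on the other side of 0.

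Mir17hg, Mir22hg and Mir124a-1hg had too few counts in EVs for the filtered test. Mir22hg, with medians of 3, 3.5 and 5 counts at 0, 120 and 320 mg/dL, had a log2 fold change of 0.41 at 320 mg/dL without the filter (SE 0.44, edgeR adjusted p = 1). A change from ethanol in these 3 hosts was not detectable at this depth.

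The EV-to-cell ratio was tested as the interaction of dose and location, with the EV and cell pair of a culture and dose as the block. This fit took the pairs of a culture at different doses as unrelated, so it did not use the pairing over doses. All 6 hosts passed the filter of this fit, and edgeR called 0 of them at 120 mg/dL, beside 0.00534% of 18728 genes, and 0 at 320 mg/dL, beside 0% of all genes, of which 224 had an unadjusted p under 0.05. For Mir9-3hg at 320 mg/dL the change of the log2 ratio was -0.47 (95% interval -1.01 to 0.07, edgeR unadjusted p = 0.0831, adjusted p = 1), and -0.48 with culture within location as the block (adjusted p = 0.454). The log2 difference between EVs and cells was smaller at 320 mg/dL (0.06 to 0.89) than at 0 mg/dL (0.63 to 1.22) in each of the 6 cultures. For Mir17hg it was -1.16, with an interval of -3.31 to 0.99. None of the 6 hosts had an unadjusted p under 0.05 in the fit with the pair as the block. The 7 precursor loci and 23 processing genes tested in cells at each dose held no call.

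Female and male cultures were compared on 1 summed library per culture, 3 cultures against 3, and the levels below are means over the 3 doses. In cells edgeR called 0 of 6 hosts, beside 0.0334% of 20972 genes, and in EVs 0 of 4 tested, beside 0% of 14847 genes (2229 of which had an unadjusted p under 0.05). DESeq2 called 0 hosts in either, and 47 genes in EVs. With 1 host in each location, the unadjusted p was under 0.05, as it was for 1398 of the 20972 genes in cells. Mir22hg in cells was lower in the female than in the male culture of each pregnancy, at 6.82 against 9.06 CPM in set 3, 9.92 against 20.6 CPM in set 4 and 11.9 against 42.2 CPM in set 5. Its log2 fold change was -1.37 (95% interval -2.65 to -0.08, edgeR unadjusted p = 0.0399, adjusted p = 0.736).

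Mir100hg showed the same order within each pregnancy (32.3 against 77.8, 56.9 against 114 and 112 against 196 CPM), with a log2 fold change of -1.03 (95% interval -2.27 to 0.22, edgeR adjusted p = 0.79). In EVs, Mir99ahg was higher in the female culture of each pregnancy, at 15 against 9.62 CPM in set 3, 22.5 against 11.2 CPM in set 4 and 29.5 against 16.8 CPM in set 5 (log2 fold change 0.92, 95% interval 0.19 to 1.64, edgeR unadjusted p = 0.0187, adjusted p = 0.315). In cells the same host had a log2 fold change of -0.14 (edgeR adjusted p = 0.986), and the difference between locations was not tested.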

How the data were processed

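RNA of 18 EV and 18 cell libraries was sequenced as paired reads in a single run. Per the study's methods, adapters and PCR duplicates were removed before alignment (STAR, mm39) and counting per gene (HTSeq) by the authors. The deposited values are whole counts per gene without normalization, used as they are, and every row carried a gene name. The strand setting and annotation release are not given in the sources used here, and positions came from GENCODE M39 on GRCm39, the same build.

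In R 4.3.3, edgeR 4.0.16 kept genes with filterByExpr (minimum count 10, minimum total count 15), scaled them by TMM and applied quasi-likelihood F tests with Benjamini-Hochberg adjustment over all genes tested, at 0.05. The contrast of EVs and cells included sex and dose as covariates but no term for the culture. Ethanol was tested with the culture as a block, and the EV-to-cell ratio as an interaction with the pair of culture and dose as a block. The sexes were tested on counts summed over doses, since libraries of a culture are not independent. CPM used the TMM factors of the EV and cell fit, and log2 CPM a prior count of 1. The tests were run on simulated data, in which every library was drawn independently and without an effect of culture. For the contrast of EVs and cells, both had the same composition there apart from the genes changed on purpose. The simulation therefore could not check the dependence between libraries of a culture or the choice of scaling. Figures were drawn with Python 3.11.15 and matplotlib 3.10.9.

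Ethanol and control libraries of a culture are pairs by design. Their deviations correlated in 12 of 12 cell pairs and 11 of 12 EV pairs (r over 0.1, medians 0.679 and 0.196). Female and male cultures of a set share the pregnancy, with 6 of 9 cell pairs and 5 of 9 EV pairs over 0.1, and EV and cell libraries of a culture and dose correlated at a median of 0.0719.

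The hosts, gene lists and tests were chosen with earlier results of these data known. Named genes are the hosts, precursors inside them, up to 3 genes per direction of each list, overlapping genes and the 2 genes most correlated with each host in cells. Alternatives were DESeq2 1.42.0, other scalings, no filter, other blocks, summed counts and leaving out each pregnancy. Leaving out 6 EV libraries under 2 M counts (M, 1e6) and 1 cell library was added after the data were seen.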

Additional observations from a re-analysis of the deposited data

Results flagged for a closer look

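Among the 6 hosts, 6 of 36 groups of 6 libraries (a host at a location and dose) held a library far from the others by Dixon's criterion. For Mir17hg in EVs these were the female set 5 library at 0 mg/dL (1.29 CPM from 3 counts, next 0.47), the female set 4 library at 120 mg/dL (1.11 CPM from 1 count, next 0.367) and the male set 4 library at 320 mg/dL (0.607 CPM from 2 counts, the other 5 at 0). Mir99ahg reached 36.1 CPM (116 counts) in the female set 5 EV library at 120 mg/dL, where the next library had 17.8 CPM. Mir22hg reached 42.5 CPM (2204 counts) in the male set 5 cell library at 0 mg/dL, next to 19.7 CPM, and 4.24 CPM (14 counts) in the male set 3 EV library at 0 mg/dL, next to 1.64 CPM. The male set 5 culture had 40.7 to 43.5 CPM of Mir22hg over its doses. The criterion supposes normally distributed values, which EV counts of 0 to 3 for Mir17hg are not. The 6 libraries of a group were also different cultures, so the number of flags was not compared with chance.

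In cells, Mir22hg at 320 mg/dL against 0 mg/dL moved in opposite directions in the sexes. It was lower in 3 of 3 female cultures (log2 difference -0.64 to -0.41, median -0.44). In 3 of 3 male cultures it was higher, by as little as 0.03 (0.03 to 0.31, median 0.12). The difference between the sexes was not tested.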

How the results depend on the processing

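Between EVs and cells, Mir17hg, Mir22hg, Mir99ahg and Mir100hg kept direction and call under every alternative run, while Mir9-3hg went to -0.04 with library totals and lost its call without the filter (0.11) and with summed counts (0.44). Over all genes, 47.6% of calls were higher in EVs with TMM, 50.1% with median of ratios, 27% with library totals and 57.4% without the filter. The replicate block by culture and dose pair changed no call of a host here, nor did the block by pregnancy between sexes. Without the filter and with summed counts Mir124a-1hg entered the test and passed, so that 5 hosts were still called, and with library totals 4.

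No host was called under ethanol or in the ratio by any alternative, so the turns of sign below are of values that did not pass. With library totals, Mir100hg was at -0.02 in cells and -0.25 in EVs at 120 mg/dL, Mir99ahg at -0.02 in EVs at 320 mg/dL, and the ratio of Mir17hg at -0.03 and Mir99ahg at -0.01 (120 mg/dL) and of Mir100hg at -0.07 (320 mg/dL). In the ratio at 120 mg/dL, Mir22hg was at 0.15 with no replicate block and 0.09 with a replicate block by culture within location, under which Mir17hg was at -0.17. The replicate block by pregnancy put Mir124a-1hg between sexes in cells at 0.03. When the libraries of a culture were taken as independent, 1 host passed between sexes in cells (Mir22hg, -1.38, edgeR adjusted p = 0.027) and 1 in EVs (Mir99ahg, 0.93, adjusted p = 0.0241). The same fits called 5.83% of 17052 genes in cells and 11.1% of 11037 genes in EVs.

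Leaving out a pregnancy or library moved values across 0 for these hosts. At 120 mg/dL, Mir9-3hg in cells lay between -0.15 and 0.07, Mir9-3hg in EVs between -0.06 and 0.05, and Mir100hg in EVs between -0.18 and 0.29. At 320 mg/dL in cells, Mir17hg ranged from -0.2 to 0.08. The ratio at 120 mg/dL ranged from -0.36 to 1.85 (Mir17hg), -0.11 to 0.04 (Mir9-3hg), -0.49 to 0.58 (Mir22hg) and -0.29 to 0.05 (Mir100hg), and at 320 mg/dL from -6 to 0.99 (Mir17hg), -0.72 to 0.29 (Mir124a-1hg), -0.25 to 0.1 (Mir99ahg) and -0.06 to 0.16 (Mir100hg). Between sexes in cells it was -0.34 to 0.21 (Mir9-3hg), -0.6 to 0.53 (Mir124a-1hg) and -0.61 to 0.1 (Mir99ahg), and in EVs -0.3 to 0.01 (Mir9-3hg).

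Counts over all genes varied. At 320 mg/dL edgeR called 10 genes in EVs and 7 in cells, against 278 and 113 by DESeq2 and 207 and 0 without the filter. Leaving out set 3, 4 or 5 gave 1, 110 and 0 in EVs and 1, 0 and 0 in cells. At 120 mg/dL in EVs the count was 1, against 12 by DESeq2 and 157 without the filter. Between sexes it was 7 in cells and 0 in EVs, against 189 and 47 by DESeq2 and 994 and 1224 with libraries taken as independent, and 644 in EVs without the filter. The cause of these differences was not tested. In EVs, 3 hosts had medians of at most 3.5 counts, which limits any test of them.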
